A study of Mus musculus with 18 samples.

Results

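The autophagy machinery was examined here as a set of 40 genes listed by function, covering initiation, membrane nucleation, the ubiquitin-like conjugation systems, cargo and mitophagy receptors and the MiT/TFE transcription factors. All 40 symbols were found among the 24419 rows of the table of FPKM (fragments per kilobase of transcript, scaled to the mapped fragments of the library), and 39 of them were tested among 13333 genes, since Atg4a stayed under an FPKM of 1 in every mouse. RNA was sequenced from heart tissue (infarct left ventricle, by the study's text) of C57BL/6 mice, 8 weeks of age, in 6 groups of 3 mice each. The group labelled control is called sham by the study, and the other 5 had the left anterior descending coronary artery tied near its origin and were sampled 10 min, 1 h, 6 h, 24 h or 72 h later, a model of acute myocardial infarction. All groups, control included, were anaesthetised with sodium pentobarbital at 50 mg/kg, and every time point holds different mice. The labels name no other treatment or genetic change, and nothing in them says how much border or remote tissue each piece held. The tissue is a mixture of heart muscle cells, stroma and infiltrating blood cells, and it was not sorted by cell type.

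Autophagy encloses cytoplasm, protein aggregates or whole mitochondria in a double membrane that then fuses with the lysosome. The ULK1 kinase complex starts the process, a class III phosphatidylinositol 3-kinase marks the growing membrane with PI3P, WIPI proteins read that lipid, and conjugation enzymes attach LC3 and GABARAP proteins to the membrane, where cargo receptors bind them. In heart muscle it is known for protein quality control and, through PINK1 and Parkin, for the removal of damaged mitochondria. Messenger RNA levels do not measure the number of autophagosomes or the flux through the pathway.

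The 18 libraries had FPKM totals of 542418 to 600467, and their relative depth, read from the steps between the lowest FPKM values, ran from 0.812 to 1.32 times that of the first control mouse, with the 3 libraries at 72 h at 1.24 to 1.32 and the second 24 h library also at 1.24. Absolute read numbers per gene are unknown, since the table holds no counts. The ventricular gene Myl2 had 12500, 11540 and 11180 FPKM in the control mice and 3529, 2472 and 2630 at 72 h, so ventricular muscle was present in both of these groups. The first 6 h mouse stood apart in 2 of the 3 atrial genes read, with 18.7 FPKM of Myl7 and 12.5 of Sln, against at most 0.49 and 0.132 in any other mouse, so calls at 6 h are also given without it. The summed FPKM of all 3 did not single it out, with 254 to 882 at 6 h, 1548 to 2273 in the 24 h mice and 1614 to 2021 at 72 h. The summed FPKM of 9 cardiomyocyte genes ran from 49390 to 52900 in the control mice and from 17570 to 21880 at 72 h, and all 9 were lower at 72 h (log2 differences of -0.92 for Ryr2 to -2.04 for Myl2). The summed FPKM of 6 macrophage and monocyte genes went from between 187 and 213 in control to between 3457 and 4575, that of 6 fibroblast genes from between 173 and 181 to between 1176 and 1533, and that of 4 pan-leukocyte genes from between 11.5 and 14.7 to between 207 and 231, each list with every member higher. The 4 neutrophil markers in the table were all higher at 6 h, with sums of 110.5 to 956 FPKM against 2.14 to 4.83 in control. T cell markers stayed under 1 FPKM. These shifts move with every 72 h result below, their part in those results was not tested, and in bulk tissue fewer cells of a type cannot be told apart from less RNA per cell.

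The number of members that differed from control grew with time. At 10 min none of the 39 passed limma's moderated test at an adjusted p under 0.05, where 0.248% of all genes tested were called higher and 0.0978% lower. An unadjusted p under 0.05 was reached by 3 members, against 1955 of 13297 genes. At 1 h no member was higher and 1 was lower, Atg12, against 0.669% and 0.0526% of all genes. There 3 members had an unadjusted p under 0.05, against 1673 of 13300 genes. At 6 h 3 members rose and 3 fell (7.69% each way) against 11.6% and 16.8% of all genes. At 24 h 6 rose and 4 fell (15.4% and 10.3%) against 26.2% and 11.4% of all genes. At 72 h 13 rose and 17 fell (33.3% and 43.6%) against 53.1% and 24.2% of all genes, and 9 were not called (Ulk2, Atg13, Atg14, Pik3c3, Pik3r4, Wipi2, Atg2b, Gabarapl1 and Sqstm1). The rises include Atg4c, which reached an FPKM of 1 only in the 72 h mice. On FPKM as deposited the share of members that rose lay below the general share at 6 h, 24 h and 72 h, and the share that fell lay above it at 72 h but not at 6 h or 24 h. Under the other scalings the 24 h share that fell was 23.1% (9 members) against 18.2% after median-of-ratios scaling. It was 28.2% (11 members) against 20.6% after quantile normalization. These shares lie near the general ones, and their difference was not tested.

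The split between rises and falls rested on the scaling of the libraries. The median log2 difference over all genes was 0.29 at 72 h and 0.13 in the 24 h mice on FPKM as deposited, against 0.03 and 0.01 after median-of-ratios scaling and -0.12 and -0.06 after quantile normalization. The members' split at 72 h became 6 higher and 26 lower under the first and 5 and 26 under the second, and at 24 h 1 and 9 or 1 and 11, where FPKM as deposited gave 6 and 4. At 6 h it was 3 and 1 or 3 and 2. Over all genes the calls at 72 h went from 68.7% higher to 52.1% and 42.5%, and at 24 h from 69.8% to 50.3% and 43.6%, and at 6 h from 40.9% to 54.8% and 43.4%. At 72 h 17 members fell and 4 rose under all 3 scalings, the 4 being Uvrag, Atg5, Gabarap and Tfe3. Both other scalings lowered the median difference at 24 h and 72 h. A fall at these times that was kept under them, here and below, was therefore less put to the test than a rise. All 9 members that were not called on FPKM as deposited were called lower after median-of-ratios scaling, with log2 differences of -0.39 (Gabarapl1) to -0.19 (Atg2b). The median member lay 0.34 below the median of all genes at 72 h on the deposited scale (0.37 and 0.32 under the other scalings), and 28 of 39 members lay under that median (30 and 27). At 6 h the median of the members and that of all genes differed by 0.02 on the log2 scale.

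**Figure D1:**
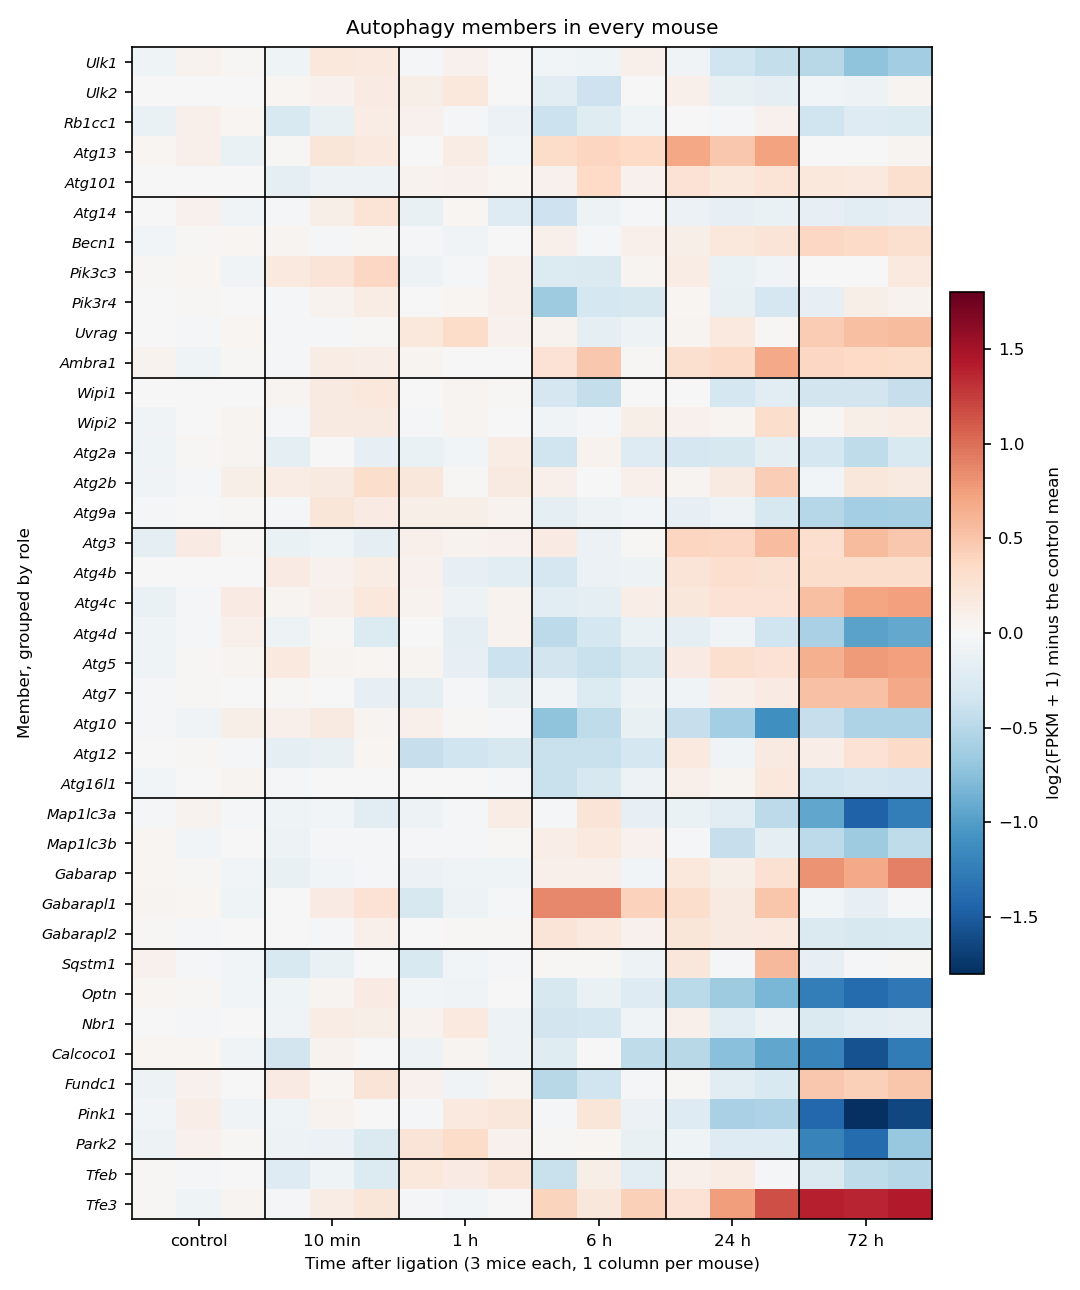
Heat map of the 39 tested members (rows, grouped by role and separated by lines) in the 18 mice (columns, 3 per group), coloured by log2(FPKM + 1) minus the mean of the control mice. The 10 min and 1 h columns are pale, while at 72 h Pink1, Calcoco1, Optn and Map1lc3a are the darkest blue rows and Tfe3 the darkest red.

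Leaving out 1 mouse changed several calls at the early times. The shares of all genes called in these smaller fits were not recorded. The member counts from such fits, here and below, therefore cannot be set against a general gain or loss of calls. Without control mouse 1 or 3, 1 member rose at 6 h, and without the first 6 h mouse 2 did. The number that fell at 6 h went from 3 to 1 without any 1 control mouse or the first 6 h mouse, to 6 without the second 6 h mouse and to 10 without the third. At 24 h the 6 rises became 1 without control mouse 1 or 3 and 2 without control mouse 2, and the 4 falls became 2 without any 1 control mouse. At 72 h leaving out any 1 mouse left 17 falls and 11 to 13 rises. Of the 16 calls of single members at 6 h and 24 h, 5 were kept whichever mouse was left out, those of Atg12 and Gabarapl1 at 6 h and of Atg13, Optn and Calcoco1 in the 24 h mice. The Atg12 call at 1 h remained only when the third 1 h mouse was the one left out.

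In the ULK initiation complex, Ulk1, the kinase that starts autophagosome formation, had 32.7, 36.2 and 35.1 FPKM in the control mice, 33.1, 26.7 and 25.4 at 24 h and 24.3, 20.6 and 22.1 in the 72 h mice. All 3 mice at 72 h lay below all control mice (log2 difference -0.62, SE 0.08, adjusted p = 0.000102). Its paralog Ulk2 had 20.4 FPKM in control and 20 at 72 h and was not called at any time on FPKM as deposited (at 72 h log2 difference -0.03, SE 0.06, adjusted p = 0.686), although it was called lower at 72 h under both other scalings (-0.33 and -0.36). The ratio of Ulk1 to Ulk2 was 1.7 ± 0.0839 in control and 1.12 ± 0.0967 at 72 h (SD, n = 3 mice). Atg13, the adaptor that links ULK1 to its partners, moved at other times. It had 35.8, 37.2 and 32 FPKM in control, 44.3, 45.8 and 45.3 at 6 h, 57, 49.1 and 58.5 in the 24 h mice and 34.9, 34.7 and 36.1 at 72 h. Its rise at 6 h (log2 difference 0.36, SE 0.08, adjusted p = 0.0167) and at 24 h (log2 difference 0.63, SE 0.10, adjusted p = 0.00674) was called under all 3 scalings, and the 6 h and 24 h mice did not overlap with control. Without the first 6 h mouse the 6 h difference was 0.37 (adjusted p = 0.0262), and that call was lost without control mouse 1 or 3. Between 24 h and 72 h it fell again (log2 difference -0.62, SE 0.10, adjusted p = 0.00274), and at 72 h its FPKM overlapped with control, although it was called lower there after median-of-ratios scaling and quantile normalization (log2 differences -0.30 and -0.24). The scaffold Rb1cc1 (FIP200) fell to 83.6 FPKM at 72 h from 102 (log2 difference -0.28, SE 0.08, adjusted p = 0.00831). Atg101, which stabilises Atg13, was called higher at 72 h on FPKM as deposited (log2 difference 0.22) but showed 0.00 after median-of-ratios scaling and -0.35 after quantile normalization.

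In the class III phosphatidylinositol 3-kinase complexes 3 of 6 members rose at 72 h (50%, against 53.1% of all genes) and none fell (against 24.2%). After median-of-ratios scaling 1 rose and 3 fell, where 39.1% of all genes rose and 36% fell. After quantile normalization 2 rose and 3 fell, where 32.1% and 43.4% did. Uvrag, the subunit of the complex that acts in endosome and autophagosome maturation, rose from 25.3 ± 0.705 to 36.9 ± 1.59 FPKM at 72 h (SD, n = 3 mice each, log2 difference 0.53, SE 0.06, adjusted p = 7e-05). Becn1, the shared regulatory subunit, went from 46.2 ± 1.38 to 58.6 ± 1.7 FPKM (log2 difference 0.34, SE 0.06, adjusted p = 0.000838), and this call was lost under median-of-ratios scaling, where its log2 difference was 0.02. Ambra1, a Beclin 1 partner, was called higher at 24 h and 72 h on FPKM as deposited (log2 differences 0.44 and 0.35), and neither call was kept under either other scaling, with a sign that turned at 72 h under quantile normalization (-0.04). Pik3r4, the regulatory kinase VPS15, fell at 6 h from 6.82 to 4.92 FPKM (log2 difference -0.41, SE 0.12, adjusted p = 0.0371) on FPKM as deposited. This call was lost under both other scalings (adjusted p = 0.0655 and 0.0524) and when any of 4 of the 6 mice was left out, among them the first 6 h mouse (adjusted p = 0.0523). Atg14, which sends the complex to the site of autophagosome formation, and the catalytic subunit Pik3c3 (VPS34) were not called at any time on FPKM as deposited, and both were among the members called lower at 72 h under the other scalings. Exons of Becn1 and Uvrag are overlapped on the opposite strand by Cntd1 (43.9% of exon bases) and Gm45187 (17.6%). No source used here says that counting used strand, so their values may hold reads of those genes. Cntd1 itself stayed at or under 0.763 FPKM in every mouse.

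Among the readers of PI3P and the lipid carriers, Wipi1 is the member whose protein the study followed as an early marker. Its mRNA had 15.3, 15.3 and 15.3 FPKM in the control mice, 15.9, 17.3 and 17.6 at 10 min and 15.2, 15.9 and 15.6 in the 1 h mice. The 10 min mice all lay above control, by 0.13 on the log2 scale (SE 0.06), which was not called (adjusted p = 0.375). At 1 h the groups overlapped (log2 difference 0.02, SE 0.05, adjusted p = 0.901). Later values were 12.3, 11.1 and 15.4 at 6 h, 15.4, 12.2 and 13.3 in the 24 h mice and 11.9, 11.9 and 11.2 at 72 h. All 72 h mice lay below all control mice and the fall was called (log2 difference -0.36, SE 0.06, adjusted p = 0.000711), also under both other scalings. Its paralog Wipi2 was not called at any time on FPKM as deposited, and the ratio of Wipi2 to Wipi1 was 1.75 ± 0.0671 in control, 1.74 ± 0.00488 at 1 h and 2.44 ± 0.174 in the 72 h mice. Atg9a, the lipid scramblase that travels on vesicles to the growing membrane, had 11.3, 11.5 and 11.8 FPKM in control, 10.3, 10.8 and 9.23 at 24 h and 7.75, 7.18 and 7.26 in the 72 h mice. It fell at 72 h with no overlap between groups (log2 difference -0.58, SE 0.07, adjusted p = 5.9e-05). The lipid transfer protein gene Atg2a fell from 24 to 18.7 FPKM (log2 difference -0.35, SE 0.07, adjusted p = 0.00199), while Atg2b was at 11.7 and 12.7 FPKM and was not called at any time on FPKM as deposited. Of the exon bases of Atg9a, 32.6% are shared with other annotated transcripts.

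The conjugation enzymes attach ATG12 to ATG5 and LC3 or GABARAP to lipid, and 9 of the 10 were tested. At 72 h 6 rose and 3 fell, so that each of the 9 was called, where 53.1% of all genes were called higher and 24.2% lower. The rises include Atg4c, which passed the expression filter only through the 72 h mice. After median-of-ratios scaling 3 rose and after quantile normalization 1, with the 3 falls in each. Atg5, which forms the ATG12-ATG5-ATG16L1 complex, had 5.42, 5.87 and 6.03 FPKM in control, 5.97, 5.14 and 4.17 at 1 h, 4.38, 4.12 and 4.56 in the 6 h mice, 6.48, 7.24 and 7.09 at 24 h and 9.56, 10.5 and 10.3 in the 72 h mice. It was lowest at 6 h, where the fall was called (log2 difference -0.34, SE 0.09, adjusted p = 0.0316), though not after median-of-ratios scaling (adjusted p = 0.0542) or when any of 5 of the 6 mice was left out, with a highest adjusted p of 0.121. It was highest at 72 h (log2 difference 0.72, SE 0.08, adjusted p = 3.1e-05), and the mice at 6 h and 72 h lay on either side of all control mice. The direct comparison of 72 h with 6 h gave a log2 difference of 1.06 (SE 0.10, adjusted p = 3.31e-05). Atg12, the ubiquitin-like protein joined to ATG5, had 66.2, 67.1 and 64.4 FPKM in control, 49.1, 51 and 53.8 at 1 h, 49.5, 49.6 and 52.7 in the 6 h mice and 71.7, 79.4 and 84 at 72 h. It fell at 1 h (log2 difference -0.35, SE 0.05, adjusted p = 0.0276) and at 6 h (log2 difference -0.38, SE 0.07, adjusted p = 0.00782), with no overlap with control. The 6 h call was kept without the first 6 h mouse (log2 difference -0.36, adjusted p = 0.0141), and the 1 h call was lost after median-of-ratios scaling (adjusted p = 0.0565). At 72 h it was called higher (log2 difference 0.24, SE 0.07, adjusted p = 0.0136), but the call was lost under quantile normalization and the sign turned under median-of-ratios scaling (-0.07).

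Atg7, the E1-like enzyme of both conjugation systems, had 3.17, 3.27 and 3.25 FPKM in control, 3.04, 3.51 and 3.7 at 24 h and 5.1, 5.11 and 5.79 in the 72 h mice. Its rise at 72 h (log2 difference 0.58, SE 0.08, adjusted p = 0.000158) separated all mice and was not called under quantile normalization (log2 difference 0.08). Atg3, the E2-like enzyme that loads LC3 onto lipid, rose at 24 h and 72 h to 29.7 and 30.1 FPKM from 21.8 (log2 differences 0.44 and 0.45, adjusted p = 0.0214 and 0.00304), calls lost under both other scalings. Atg10, the E2-like enzyme for ATG12, went the other way. It had 8.65, 8.45 and 9.69 FPKM in control, 4.98, 6.25 and 8.07 at 6 h, 6.41, 5.48 and 3.6 in the 24 h mice and 6.45, 5.72 and 5.75 at 72 h. Its fall was called at 24 h (log2 difference -0.71, SE 0.18, adjusted p = 0.0228) and at 72 h (log2 difference -0.51, SE 0.08, adjusted p = 0.000472), and every mouse of both times lay below control. The 24 h call was lost without any 1 control mouse, with a highest adjusted p of 0.0798. Atg16l1, which positions the complex on the membrane, fell at 72 h from 18.6 to 14.5 FPKM (log2 difference -0.34, SE 0.06, adjusted p = 0.00109).

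The ATG4 proteases, which cut LC3 and GABARAP proteins before and after lipidation, differed among themselves. Atg4d had 19.2, 19.9 and 21.8 FPKM in control, 18, 19.3 and 15.6 at 24 h and 13.3, 9.93 and 10.2 in the 72 h mice, and fell at 72 h (log2 difference -0.82, SE 0.11, adjusted p = 0.00014). Atg4c was the lowest member that was tested, with 0.508, 0.613 and 0.818 FPKM in control and 1.4, 1.68 and 1.73 at 72 h. It rose (log2 difference 0.66, SE 0.10, adjusted p = 0.000377), not called under quantile normalization. Its log2(FPKM + 1) difference understates the ratio of means of 2.48 because the values are close to the pseudocount. Only the 72 h mice reached an FPKM of 1, so Atg4c entered the test through the group where it was high. Its call is therefore not free of the filter. Atg4b, the most active of the family, was called higher at 24 h and 72 h on FPKM as deposited (log2 differences 0.27 and 0.31), and neither call was kept under either other scaling, with a sign that turned at 72 h under quantile normalization (-0.04). Atg4a stayed between 0.0965 and 0.419 FPKM and shares 41.3% of its 75-base stretches with another annotated gene. Exons of Atg4d overlap Kri1 on the opposite strand over 19.3% of their bases, and Kri1 had a mean of 2.35 FPKM in control and 3.16 at 72 h.

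Promoter bases of 6 members are given. Atg3, Atg5 and Atg7 were chosen because their windows hold CACGTG upstream of the start, and Gabarapl1, Tfe3 and Pink1 because they had the largest differences at 6 h or 72 h. Atg4b and Atg4c, conjugation genes also called higher at 72 h on FPKM as deposited, have windows without CACGTG. They were taken from RefSeq windows on build GRCm38.p6, from 250 bases before each transcription start to 50 after it, of which a stretch of 100 bases upstream of the start is printed 5′ to 3′ on the gene's own strand. It begins 141 bases before the start in Atg3 and 179 in Atg7, where it was centred on the first CACGTG, and 100 bases before the start in the other 4. RefSeq windows were matched for 33 of the 40 members, 39 windows in all, and not for Rb1cc1, Becn1, Pik3c3, Atg12, Atg16l1, Map1lc3a and Park2. Capitals mark CACGTG, the E-box core that MiT/TFE factors and many other basic helix-loop-helix proteins can bind.
Atg3 promoter, chr16:45158688-45158787, plus strand: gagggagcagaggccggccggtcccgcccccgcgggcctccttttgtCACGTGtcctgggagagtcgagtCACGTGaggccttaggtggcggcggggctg
Atg5 promoter, chr10:44268239-44268338, plus strand: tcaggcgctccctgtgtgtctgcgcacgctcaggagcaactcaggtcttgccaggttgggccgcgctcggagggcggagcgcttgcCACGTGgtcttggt
Atg7 promoter, chr6:114670917-114671016, plus strand: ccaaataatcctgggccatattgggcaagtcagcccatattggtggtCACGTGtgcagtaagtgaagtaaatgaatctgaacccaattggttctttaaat
Gabarapl1 promoter, chr6:129533092-129533191, plus strand: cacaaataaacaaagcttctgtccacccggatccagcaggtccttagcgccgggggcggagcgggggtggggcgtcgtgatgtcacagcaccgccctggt
Tfe3 promoter, chrX:7762561-7762660, plus strand: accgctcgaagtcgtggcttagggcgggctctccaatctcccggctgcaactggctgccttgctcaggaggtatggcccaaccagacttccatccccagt
Pink1 promoter, chr4:138326297-138326396, minus strand: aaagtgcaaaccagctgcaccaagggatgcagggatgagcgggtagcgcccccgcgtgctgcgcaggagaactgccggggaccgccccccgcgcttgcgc
CACGTG was found in 4 of the 33 members with a window (12.1%), Atg3, Atg5, Atg7 and Atg14, against 8.09% of 27025 genes. In Atg3 it began 94 and 71 bases before the start, in Atg5 14 and in Atg7 132, and in Atg14 it spanned the start. The longer TCACGTG, which contains it, was in 3 members (9.09%) against 4.29% of genes. TGACNNNGC (the antioxidant response motif) was in 3 members (9.09%) against 14%, the AP-1 motif TGANTCA in 1 (3.03%) against 8.97%, the heat shock unit GAANNTTC in 1 (3.03%) against 9.04% and the forkhead motif GTAAACA in none against 4.05%, all searched on both strands. These are matches of letters in a window and were not tested against the expression values.

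The LC3 and GABARAP genes, whose proteins coat the autophagosome, gave the clearest exchange within a family. Map1lc3a (LC3A) had 200.2, 213 and 201 FPKM in control, 187, 178 and 148 at 24 h and 106, 74.2 and 85.8 in the 72 h mice, and Gabarap had 131, 129.6 and 124, 147, 138 and 155 and 226, 206 and 242 at the same times. Map1lc3a fell at 72 h (log2 difference -1.21, SE 0.12, adjusted p = 2.22e-05) and Gabarap rose (log2 difference 0.80, SE 0.08, adjusted p = 1.68e-05), each with no overlap between groups and each under all 3 scalings. Their order in the tissue was exchanged: the ratio of Gabarap to Map1lc3a was 0.654, 0.609 and 0.617 in the control mice and 2.12, 2.78 and 2.82 at 72 h. This ratio is taken within a mouse and does not change with the depth or a common scale factor of its library. Map1lc3b (LC3B), the form most often followed as an autophagosome marker, had 44.9, 42.3 and 44 FPKM in control, 41, 42.5 and 42.9 at 10 min, 42.6, 42.7 and 44.5 in the 1 h mice, 47.8, 49.6 and 46.1 at 6 h, 42.5, 32.6 and 38.8 in the 24 h mice and 31.2, 27.7 and 31.5 at 72 h. It was not called at 10 min or 1 h (log2 differences -0.05 and -0.01), and the only call was a fall at 72 h (log2 difference -0.52, SE 0.07, adjusted p = 0.000149).

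Gabarapl1 was the member with the largest rise at 6 h. It had 120.2, 119 and 109.7 FPKM in control, 94.7, 109 and 114 at 1 h, 212, 213 and 156 in the 6 h mice, 145, 129.6 and 166 at 24 h and 112, 105 and 114 in the 72 h mice. The mice at 6 h lay above every mouse of the earlier groups (log2 difference 0.72, SE 0.13, adjusted p = 0.00809), and without the first 6 h mouse the log2 difference was 0.64 (adjusted p = 0.0185). At 24 h it was still called higher on FPKM as deposited (log2 difference 0.33, SE 0.11, adjusted p = 0.0496), a call that leaving out any of 5 of the 6 mice removed, and from 24 h to 72 h it fell (log2 difference -0.40, SE 0.12, adjusted p = 0.0281). Gabarapl2 fell from 14.3 to 11.7 FPKM at 72 h (log2 difference -0.27, SE 0.06, adjusted p = 0.00303). Of the exon bases of Gabarapl1, 28.3% lie opposite 1700101I11Rik, which stayed at or under 1.44 FPKM. Gabarapl2 shares 9.53% and Map1lc3b 4.09% of their 75-base stretches with pseudogene copies, so reads of these genes may have been split.

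Summed over these 5 genes, FPKM was 507 ± 13.2 in control, 599 ± 66.7 at 6 h and 466 ± 35.5 in the 72 h mice (SD, n = 3 mice). The make-up of that sum differed more than its size. Map1lc3a took 40.3% ± 1 of it in control and 19% ± 2.46 at 72 h, and Gabarap took 25.3% ± 0.339 and 48.3% ± 1.83, with no overlap between the mice. Gabarapl1 took 22.9% ± 0.629 in control, 32.2% ± 2.42 at 6 h and 23.8% ± 0.844 in the 72 h mice. Map1lc3b went from 8.63% ± 0.405 to 6.47% ± 0.0563 and Gabarapl2 from 2.83% ± 0.0955 to 2.52% ± 0.173.

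**Figure D2:**
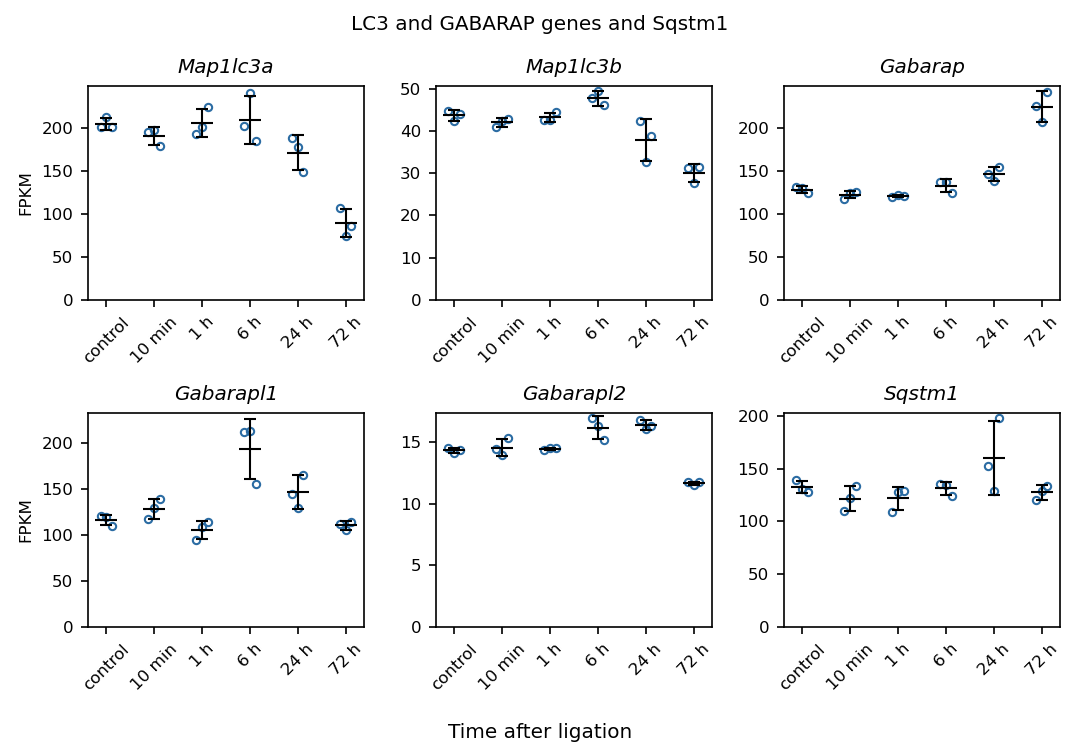
FPKM (linear axis from 0) of the 5 LC3 and GABARAP genes and Sqstm1 against time after ligation; circles are single mice, horizontal bars with whiskers the mean ± SD of 3 mice. Gabarap lies between 206 and 242 FPKM at 72 h, above all earlier mice, while Map1lc3a lies between 74.2 and 106.4, below all of them, and Gabarapl1 peaks at 6 h.

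Of the 4 cargo receptors, 3 fell at 72 h and none rose, where 24.2% of all genes fell and 53.1% rose. Optn (optineurin), a ubiquitin-binding receptor for mitochondria and bacteria, had 43.2, 42.6 and 40.8 FPKM in control, 34.4, 38.9 and 35.6 at 6 h, 29.9, 26.6 and 23.5 in the 24 h mice and 17.2, 15.5 and 16.8 at 72 h. Its fall was called at 24 h (log2 difference -0.65, SE 0.10, adjusted p = 0.00659) and 72 h (log2 difference -1.31, SE 0.07, adjusted p = 3.86e-07), and the 24 h mice lay between those of control and 72 h without overlap. Calcoco1, a receptor for endoplasmic reticulum and Golgi membranes, had 75.6, 75.6 and 70.9 FPKM in control, 51.9, 43.4 and 38.1 at 24 h and 31.7, 24.3 and 30.3 in the 72 h mice. The same order of groups held, with calls at 24 h (log2 difference -0.73, SE 0.12, adjusted p = 0.00689) and 72 h (log2 difference -1.34, SE 0.10, adjusted p = 3.62e-06). Nbr1, a receptor for ubiquitinated aggregates and peroxisomes, fell less, from 15 to 12.8 FPKM (log2 difference -0.21, SE 0.06, adjusted p = 0.0121).

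Sqstm1 (p62), the best known receptor and itself a substrate of autophagy, had 139, 131 and 128 FPKM in control, 109, 122 and 133 at 10 min, 109, 128 and 129 in the 1 h mice, 135, 135 and 124 at 6 h, 152, 129 and 198 in the 24 h mice and 119.9, 129 and 134 at 72 h. It was not called at any time on FPKM as deposited, and the highest value was that of the third 24 h mouse. At 72 h its log2 difference was -0.06 (SE 0.07) on FPKM as deposited and -0.37 after median-of-ratios scaling, where it was called (adjusted p = 0.00143). Exons of Sqstm1 overlap Mrnip on the opposite strand over 17.3% of their bases.

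The mitophagy genes held the largest fall among the members. Pink1, the kinase that gathers on damaged mitochondria (ENSMUSG00000028756.12, chr4:138313409-138326307, minus strand, mm10), was the most abundant member, with 687, 768 and 677 FPKM in control, 697, 822 and 659.9 at 6 h, 605, 474 and 482 in the 24 h mice and 266, 198 and 228 at 72 h. All 24 h mice lay below control (log2 difference -0.46, SE 0.12, adjusted p = 0.0276) and all 72 h mice below those (log2 difference -1.63, SE 0.11, adjusted p = 2.6e-06), a ratio of means of 0.324. The 24 h call was lost without any 1 control mouse or the second 24 h mouse, with a highest adjusted p of 0.107. Park2 (Parkin), the ubiquitin ligase that PINK1 activates, had 3.59, 4.13 and 3.95 FPKM in control, 4.76, 5.13 and 4.15 at 1 h, 3.62, 3.15 and 3.16 in the 24 h mice and 1.12, 0.88 and 2.04 at 72 h. It fell at 72 h (log2 difference -1.09, SE 0.17, adjusted p = 0.000318), and its level is low enough that the pseudocount of 1 shortens this difference. Fundc1, a receptor of the outer mitochondrial membrane, rose at 72 h from 8.29 to 11.8 FPKM (log2 difference 0.47, SE 0.07, adjusted p = 0.000347), a call lost under both other scalings (log2 differences 0.18 and 0.06). The ratio of Pink1 to Fundc1 within a mouse was 85.7 ± 3.78 in control, 69.9 ± 3.38 at 24 h and 19.5 ± 2.53 in the 72 h mice. The falls of Pink1, Calcoco1, Optn and Map1lc3a (-1.63 to -1.21) lay within the range of the 9 cardiomyocyte markers (-0.92 for Ryr2 to -2.04 for Myl2), whose part in them was not tested.

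The transcription factors TFEB and TFE3 both drive lysosomal and autophagy genes, and their messages went opposite ways. Tfeb had 171, 164 and 169.9 FPKM in control, 192, 187 and 199 at 1 h, 127, 182 and 146 in the 6 h mice, 179, 184 and 166 at 24 h and 140.0, 123 and 118 in the 72 h mice, and fell at 72 h (log2 difference -0.41, SE 0.08, adjusted p = 0.00128). Tfe3 (ENSMUSG00000000134.17, chrX:7762560-7775202, plus strand, mm10) had 9.79, 9.09 and 10 FPKM in control, 13, 11.3 and 13.3 at 6 h, 11.7, 16.9 and 22.7 in the 24 h mice and 27.1, 26.5 and 27.6 at 72 h. It was called higher at 6 h (log2 difference 0.34, SE 0.10, adjusted p = 0.034), at 24 h (log2 difference 0.72, SE 0.21, adjusted p = 0.035) and at 72 h (log2 difference 1.40, SE 0.07, adjusted p = 2.61e-07), the largest rise of any member at 72 h under all 3 scalings. The 24 h mice were spread widely. The 24 h call was lost under both other scalings (adjusted p = 0.0527 and 0.0572) and when any of 4 of the 6 mice was left out. The 6 h call was lost when any of 5 of the 6 was left out, with a highest adjusted p of 0.122. The ratio of Tfeb to Tfe3 was 17.5 ± 0.549 in control, 20.4 ± 0.194 at 1 h, 12.3 ± 3.38 in the 6 h mice, 11.1 ± 3.95 at 24 h and 4.69 ± 0.459 in the 72 h mice.

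**Figure D3:**
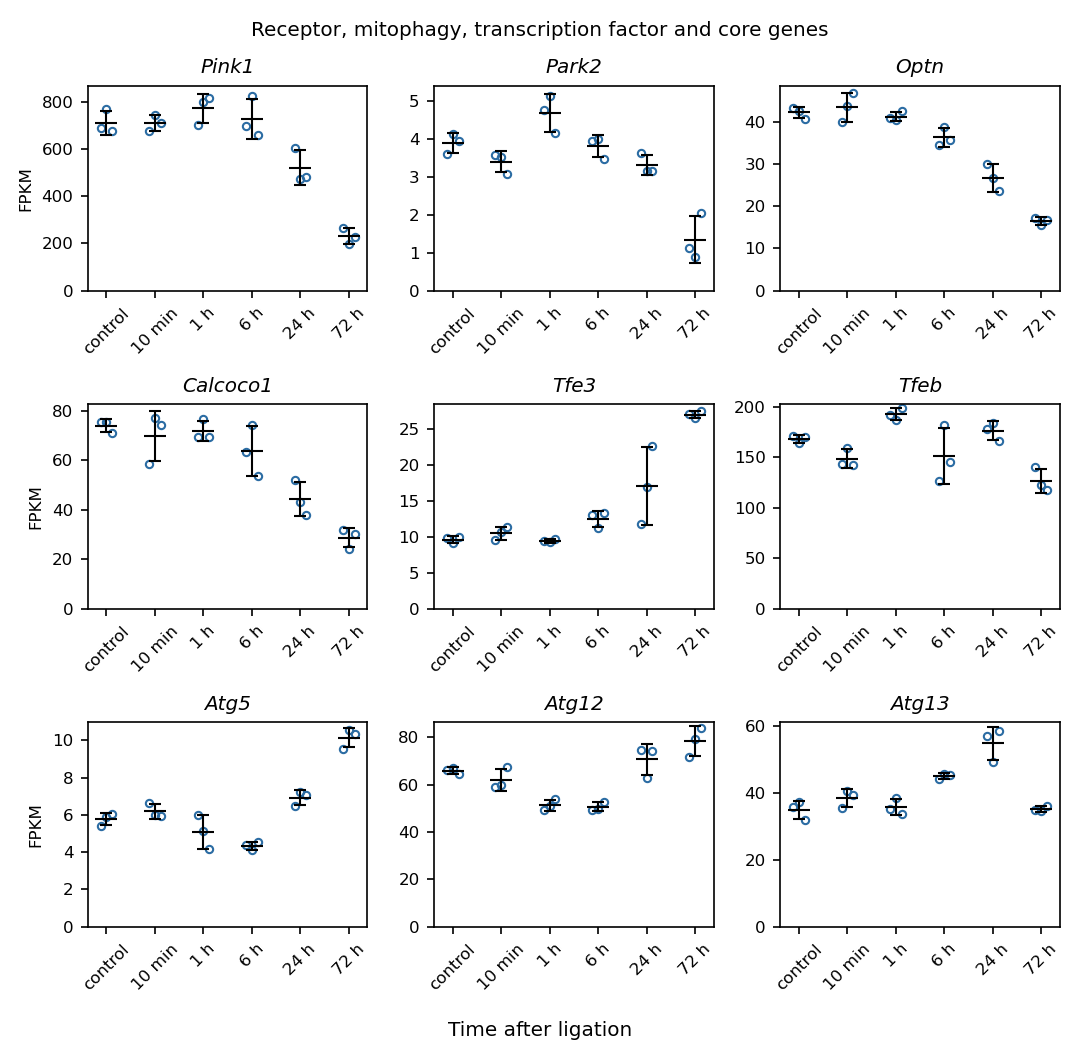
FPKM (linear axes from 0) of 9 members against time after ligation; circles are single mice, horizontal bars with whiskers the mean ± SD of 3 mice. The means of Pink1, Optn and Calcoco1 step down from 6 h to 24 h to 72 h and that of Tfe3 steps up. Their steps from 6 h to 24 h were not called on FPKM as deposited. Atg5 is lowest at 6 h, Atg12 is low at 1 h and 6 h, and Atg13 is highest at 24 h and back at the control level at 72 h.

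The steps between later times were tested directly. From 6 h to 24 h 3 members rose, Atg4b, Atg5 and Atg12, and none fell, against 12.5% and 1.94% of all genes. An unadjusted p under 0.05 was reached by 12 members in either direction (5 of them lower), against 4855 of 13328 genes. Under median-of-ratios scaling the adjusted calls became 0 higher and 1 lower, and under quantile normalization 0 and 0, where the share of higher calls over all genes went from 86.6% to 52.3% and 56.9%. Without the first 6 h mouse no member was called either way. Leaving out any 1 mouse left at most 1 of the rises, and only without the first 24 h mouse. From 24 h to 72 h 7 rose and 13 fell (17.9% and 33.3%), against 29.7% and 13.5% of all genes. The split was 6 and 16 or 5 and 19 under the other scalings, where the share of higher calls over all genes went from 68.8% to 54% and 44.8%. All 13 falls were kept under both, Pink1 (log2 difference -1.17, SE 0.15, adjusted p = 0.00103) and Map1lc3a (log2 difference -0.95, SE 0.16, adjusted p = 0.003) being the largest. Both scalings lowered the median of all genes, from 0.13 to -0.01 and -0.10, so the falls were little put to the test. From 6 h to 72 h 12 rose and 12 fell (30.8% each), against 50.3% and 16.7% of all genes. Under the other scalings these were 6 and 22 or 5 and 21, with the share of higher calls over all genes going from 75.1% to 51.4% and 44.9%, and 11 and 13 without the first 6 h mouse. All comparisons with control share the same 3 control mice.

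Over the whole course 6 tested members were never called against control on FPKM as deposited, Ulk2, Atg14, Pik3c3, Wipi2, Atg2b and Sqstm1. Another 21 were called at 1 time, 10 at 2 and 2 (Atg12 and Tfe3) at 3. For 17 members the 6 group means stayed within 1.5-fold of each other. The highest group mean fell at 72 h for 11 members and the lowest at 72 h for 16.

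**Figure D4:**
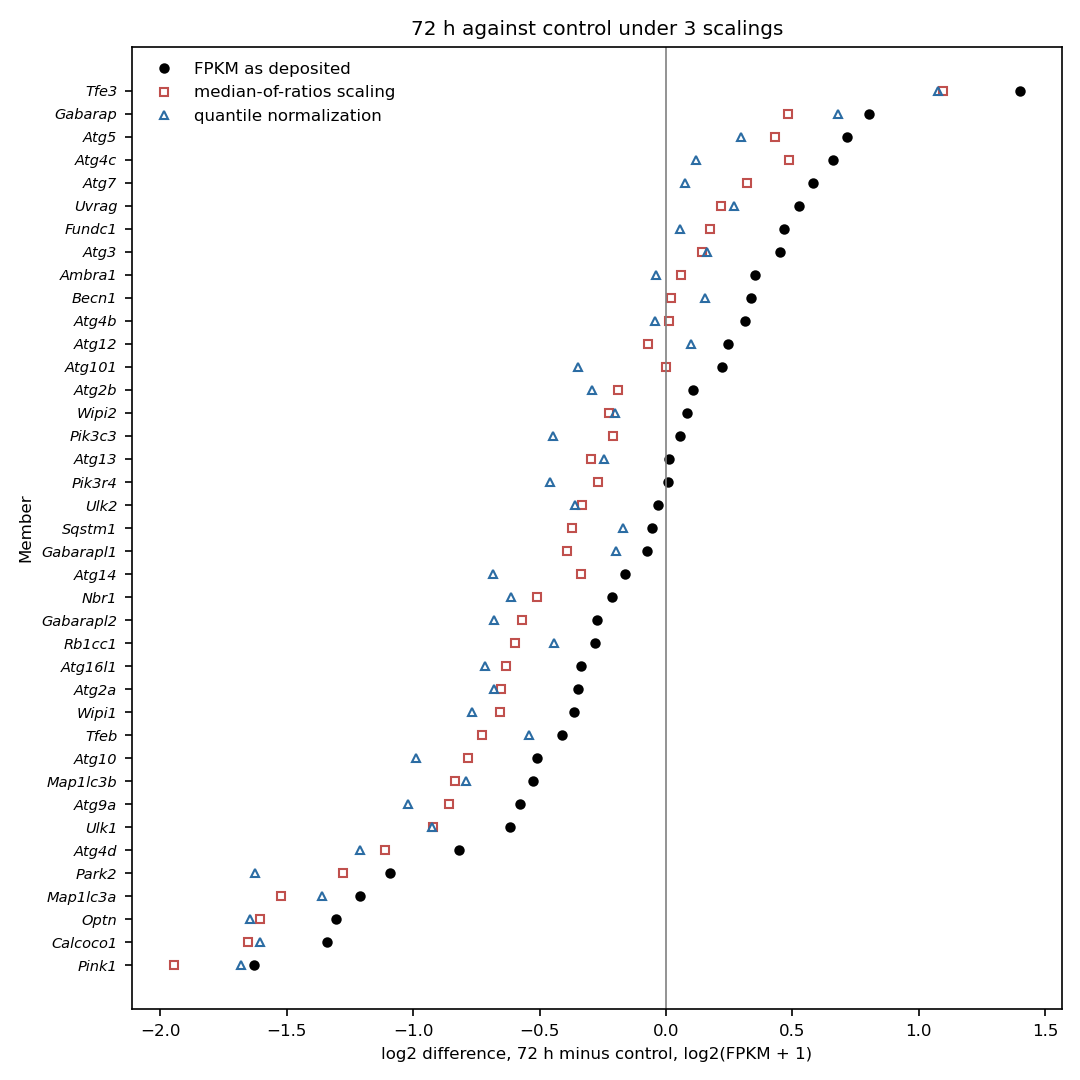
Log2 difference at 72 h minus control (horizontal axis, log2(FPKM + 1) scale) of the 39 tested members, ordered by the value on FPKM as deposited; symbols give the 3 scalings. The 17 falls keep their sign in all 3, Uvrag, Atg5, Gabarap and Tfe3 keep their rise, and 9 of the members between them change sign or reach 0 under another scaling.

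The genes around the core machinery were read from 5 further lists. Of 16 lysosomal membrane and enzyme genes, 14 rose at 72 h and 1 fell under each of the 3 scalings (87.5% and 6.25% on FPKM as deposited, where 53.1% and 24.2% of all genes did), with a median log2 difference of 1.73 against -0.06 for the autophagy members and 0.29 for all genes. Among the largest were the cathepsin Ctsb (225 ± 7.93 to 1819 ± 187 FPKM, log2 difference 3.01) and the alpha-galactosidase Gla (3.0), and the gene that fell was the glucosidase Gaa (-0.33). At 6 h 1 lysosomal gene rose, Ctsl (log2 difference 0.34), and 2 fell, among them Hexa (-0.35), or 6.25% and 12.5% against 11.6% and 16.8% of all genes. The fall of Hexa was not called after median-of-ratios scaling, where 3 genes rose and 1 fell. The macrophage and monocyte markers rose at 72 h by a median of 4.46, and their part in the lysosomal rises was not tested.

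Of 16 further genes of autophagosome formation and fusion, 8 rose and 4 fell at 72 h (median 0.22), or 50% and 25% against 53.1% and 24.2% of all genes, and 6 and 6 or 6 and 8 under the other scalings. Vmp1, which works in the endoplasmic reticulum at the start of autophagosome growth, rose at 6 h (log2 difference 0.67, SE 0.07, adjusted p = 0.000995) and at 72 h (log2 difference 1.3, SE 0.06, adjusted p = 2.91e-07), from 33 FPKM in control to 53.2 and 82.9. The fusion adaptor Plekhm1 and the class III kinase subunit Nrbf2 rose at 72 h (log2 differences 1.12 and 0.87). At 6 h Tmem41b, a scramblase partner of VMP1, rose (0.43) and the fusion SNARE Stx17 fell (-0.57). In this list 3 genes rose and 1 fell at 6 h, or 18.8% and 6.25% against 11.6% and 16.8% of all genes.

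Of 21 further genes of cargo selection and mitophagy, not all of them receptors, 11 rose and 9 fell at 72 h, or 52.4% and 42.9% against 53.1% and 24.2% of all genes, and 4 and 9 did after median-of-ratios scaling and 9 and 11 after quantile normalization. At 6 h 1 rose and 4 fell, or 4.76% and 19% against 11.6% and 16.8% of all genes. Under the other scalings these were 2 and 1 or 2 and 4. Bnip3, a hypoxia-inducible mitophagy receptor, rose at 6 h from 48.6 to 77.9 FPKM (log2 difference 0.66, SE 0.12, adjusted p = 0.0084). At 72 h Bnip3 was called lower than control (log2 difference -0.67), also under both other scalings (-0.98 and -0.94). The glycogen receptor Stbd1 fell at 6 h (-0.46) and rose at 72 h (1.17), and the mitochondrial ligase Mul1 fell at 6 h (-0.32), a call lost after median-of-ratios scaling. At 72 h the reticulophagy receptor Fam134b (-1.09) and the chaperone Hspb8 (-1.0) fell.

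Of 25 genes of mTORC1, TSC and AMPK control, which set the activity of the ULK1 complex, 8 rose and 8 fell at 72 h, or 32% each against 53.1% and 24.2% of all genes, and 5 and 14 or 5 and 17 under the other scalings. In this list 2 rose and 3 fell at 6 h, or 8% and 12% against 11.6% and 16.8% of all genes. Under the other scalings these were 2 and 1 or 2 and 3. The mTORC1 inhibitors Ddit4 (REDD1) and Sesn2 rose at 6 h (log2 differences 1.09 and 0.55), and Ddit4 was also higher at 1 h (log2 difference 1.64, SE 0.16, adjusted p = 0.0036), where 0.669% of all genes were. Prkaa2, the AMPK catalytic subunit of muscle, fell at 6 h (-0.50) and 72 h (-0.98). At 72 h Fnip2, a folliculin partner, rose (1.54) and the lysosomal GTPase Rragd fell (-1.04). Of 6 further transcriptional regulators, 2 rose and 2 fell at 72 h (33.3% each, against 53.1% and 24.2% of all genes), and 1 rose and 4 fell under both other scalings. Tfec, the MiT/TFE member typical of macrophages, rose from 0.472 FPKM in control to 3.02 at 6 h and 16.2 in the 72 h mice (log2 differences 1.42 and 3.55), while Mitf fell at 72 h (-0.50). Nfe2l2 (NRF2) rose at both times (0.39 and 0.42), at 72 h on FPKM as deposited alone among the scalings, and Zkscan3, a repressor of autophagy genes, fell at 6 h (-0.58).

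The 6 h calls of these lists were also read without the first 6 h mouse. With that mouse 11.6% of all genes were higher and 16.8% lower. The shares without it were not recorded, so the counts below have no general share beside them. The formation and fusion list kept 3 rises and 1 fall, and the cargo and mitophagy list had 1 rise and 2 falls, with Mul1 no longer called (adjusted p = 0.0516). The mTORC1 list had 2 rises, Ddit4 (log2 difference 0.86) and Sesn2 (0.44), and no fall, with Prkaa2 no longer called (adjusted p = 0.078). The lysosomal list had no rise and 2 falls, with Ctsl no longer called (adjusted p = 0.0518), and Nfe2l2 was not called either (adjusted p = 0.0835).

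**Figure D5:**
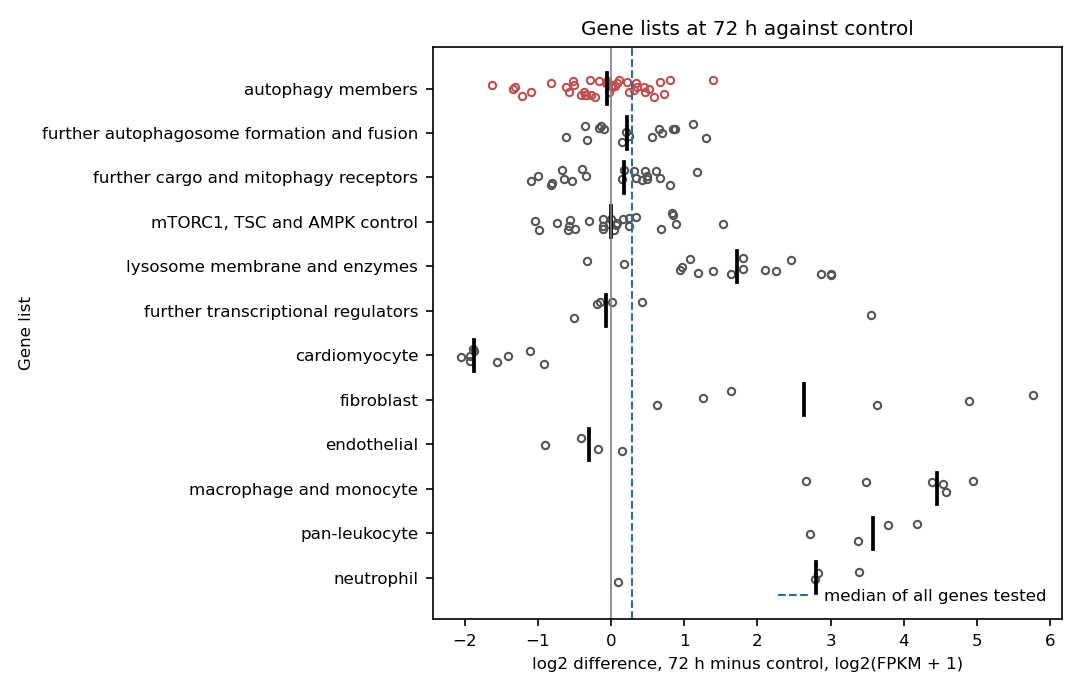
Log2 difference at 72 h minus control (horizontal axis, log2(FPKM + 1) scale) of each gene (circles, spread vertically at random) of the autophagy members, the 5 further lists and 6 cell type marker lists; black bars are medians and the dashed line the median of all genes tested (0.29). The autophagy members lie on both sides of 0, 14 of 16 lysosomal genes between 0.95 and 3.01, and the cardiomyocyte markers between -2.04 (Myl2) and -0.92 (Ryr2).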

How the data were processed

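RNA was sequenced from 18 mice, 3 per group, and groups were taken from the sample titles. Per the labels polyA RNA was used, with an NEBNext Ultra library kit. The submitters' processing notes name cutadapt 1.18, HISAT2 2.1.0, StringTie 1.3.4d, Cufflinks and Cuffdiff, and the mm10 build. The values are FPKM per gene, which the authors deposited as one table with a column per mouse. All columns were mapped to a sample, although the headers of the 1 h mice and of the second 6 h mouse are misspelt. The gene annotation and the use of strand are not given in the sources used here. Nothing says that the mice of a group came from separate litters or surgery days, so p-values measure the spread between these mice.

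A gene was tested if any mouse reached an FPKM of 1. Values were compared as log2(FPKM + 1) with limma 3.58.1 in R 4.3.3, as a moderated test with a variance trend, the 2 groups compared in each fit, and Benjamini-Hochberg adjustment over all genes of that fit. Genes at 0 in every mouse of a fit were left out of it. A value was called at an adjusted p under 0.05. A log2 difference is the first-named or later group minus the other on this scale, which understates changes of low genes. On simulated data with the spread of the control mice, 200 of 200 genes changed by 1 on the log2 scale were called, and 16 of 13133 unchanged genes. The changed genes were drawn from the better expressed ones, and both groups were given the same spread. Smaller changes, low genes and the wider spread of later groups were not simulated. Alternatives covered the pseudocount (0.1), the filter (none, or the mean FPKM), 2 other scalings, a shared fit of all 18 mice, the replicate number as a block, the variance trend, the threshold, and each mouse left out. Relative depth was the most frequent ratio between low FPKM values of a mouse and of the first control mouse.

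The members and all lists were chosen with earlier results of these data known. Members called against control with a ratio of means of at least 1.5 in either direction are given mouse by mouse, in control and at selected times. Wipi1, Map1lc3b and Sqstm1 are given in every mouse of all groups. The per-mouse values of Atg12 and Tfeb, Ddit4 at 1 h and Bnip3 at 72 h were added after their values were seen. Of each further list, the 3 called genes with the largest differences at 6 h and at 72 h are named, apart from 1 gene that is not reported here. Positions, exon overlaps and shared 75-base stretches come from the GENCODE annotation of mm10, and promoter windows from RefSeq. Python 3.11.15, pandas 2.3.3, numpy 2.4.6 and matplotlib 3.10.9 were used.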

Additional observations from a re-analysis of the deposited data

Results flagged for a closer look

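Atg5 and Atg12 were each called lower than control at 6 h and higher at 72 h, and the later time was then compared with the earlier one directly. For Atg5 the log2 difference of 72 h minus 6 h was 1.06 (limma, adjusted p = 3.31e-05). It was 0.70 after median-of-ratios scaling and 0.60 after quantile normalization, and it was called under both (adjusted p = 0.000231 and 0.000602). The fall of Atg5 at 6 h itself was called in 1 of the 6 fits that each left out a mouse. For Atg12 it was 0.62 (limma, adjusted p = 0.000598). It was 0.21 and not called after median-of-ratios scaling (adjusted p = 0.0574), and 0.47 and called after quantile normalization (adjusted p = 0.00248). In both genes every 72 h mouse lay above every 6 h mouse. The difference of Atg12 between 72 h and control turned sign after median-of-ratios scaling (-0.07). No cause was tested for either gene. Groups of 3 mice are too small for a test of single outlying mice.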

How the results depend on the processing

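Counts of members called higher and lower, in that order, on the settings as reported were 0 and 0 at 10 min against control, 0 and 1 at 1 h against control, 3 and 3 at 6 h against control, 6 and 4 at 24 h against control, 13 and 17 at 72 h against control, 3 and 0 at 24 h against 6 h, 7 and 13 at 72 h against 24 h, 12 and 12 at 72 h against 6 h. After median-of-ratios scaling they were 0 and 0 at 1 h against control, 3 and 1 at 6 h against control, 1 and 9 at 24 h against control, 6 and 26 at 72 h against control, 0 and 1 at 24 h against 6 h, 6 and 22 at 72 h against 6 h. After quantile normalization they were 1 and 11 at 24 h against control, 5 and 26 at 72 h against control, 0 and 0 at 24 h against 6 h, 5 and 21 at 72 h against 6 h. With all 18 mice in 1 fit they were 0 and 0 at 1 h against control, 2 and 6 at 6 h against control, 10 and 6 at 24 h against control, 8 and 6 at 24 h against 6 h. With a ratio of means over 2 required as well they were 0 and 0 at 1 h against control, 0 and 0 at 6 h against control, 0 and 0 at 24 h against control, 2 and 5 at 72 h against control, 0 and 0 at 24 h against 6 h, 0 and 2 at 72 h against 24 h, 3 and 5 at 72 h against 6 h. At an unadjusted p under 0.05 they were 2 and 1 at 10 min against control, 2 and 1 at 1 h against control, 3 and 8 at 6 h against control, 10 and 7 at 24 h against control, 7 and 5 at 24 h against 6 h. Over all genes, both directions together, such a p was reached in these comparisons by 1955 of 13297, 1673 of 13300, 5673 of 13321, 6700 of 13327 and 4855 of 13328 genes. With no variance trend the member counts were 0 and 0 at 1 h against control. Leaving out each mouse in turn gave 0 to 1 lower at 1 h against control, 1 to 3 higher at 6 h against control, 1 to 10 lower at 6 h against control, 1 to 5 higher at 24 h against control, 2 to 6 lower at 24 h against control, 0 to 1 higher at 24 h against 6 h, 0 to 2 lower at 24 h against 6 h. Shares of all genes in those smaller fits were not recorded. Comparisons whose member counts a sentence leaves out stayed within 1.5 times of the counts as reported. The sign of the difference of 72 h against control turned (or reached 0) after median-of-ratios scaling in Atg13 (-0.30), Atg101 (0.00), Pik3c3 (-0.21), Pik3r4 (-0.27), Wipi2 (-0.22), Atg2b (-0.19), Atg12 (-0.071). The sign of the difference of 72 h against control turned (or reached 0) after quantile normalization in Atg13 (-0.24), Atg101 (-0.35), Pik3c3 (-0.45), Pik3r4 (-0.46), Ambra1 (-0.039), Wipi2 (-0.20), Atg2b (-0.29), Atg4b (-0.042). The sign of the difference of 72 h against 6 h turned (or reached 0) after median-of-ratios scaling in Becn1 (-0.12), Wipi2 (-0.31), Atg2b (-0.34), Nbr1 (-0.36). The sign of the difference of 72 h against 6 h turned (or reached 0) after quantile normalization in Atg101 (-0.56), Atg14 (-0.54), Pik3c3 (-0.32), Pik3r4 (-0.087), Atg2b (-0.39), Nbr1 (-0.41). Of 94 called member values, 7 changed sign under a scaling and 0 under another alternative, and the cause was not tested. A pseudocount of 0.1 kept all 312 member values on their side of the threshold. No filter lost 5 calls. A filter on the mean FPKM left out Atg4c, with 12 and 17 called at 72 h against control.

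By the labels, same-numbered mice of different groups share only a number. The correlation of their deviations from the group means ran from -0.33 to 0.41, with no common sign. With 3 mice per group these correlations cannot decide whether the numbers pair the mice. With the replicate number as a block the counts were 0 and 0 at 10 min against control, 0 and 0 at 1 h against control, 2 and 1 at 6 h against control, 4 and 3 at 24 h against control, 12 and 17 at 72 h against control, 0 and 0 at 24 h against 6 h, 7 and 12 at 72 h against 24 h, 11 and 12 at 72 h against 6 h.

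Absolute depth is unknown, since the table holds no counts, and 3 mice per group limit the precision at every time.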
